A study of Mus musculus with 24 samples.

Results

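The 35 genes described here encode the contractile machinery of striated muscle and the parts of the neuromuscular junction and excitation-contraction apparatus that muscle builds with it. They were taken from a list of gene symbols, and each was read from its annotated probe set with the highest mean over 24 Affymetrix Mouse430_2 arrays. All 35 had a probe set, and they stand among 18193 genes with a probe set of their own. The gene Cacng1, a subunit of the skeletal muscle calcium channel, never exceeded the level used as a filter on dim genes (log2 6.07). The other 34 did so on at least 2 arrays and were tested among the 13837 genes kept. The arrays held total RNA from the faces of C57B6 mouse embryos at embryonic day 12.5. Wnt1cre;Alk5fl/+ mice had been crossed with Alk5fl/fl mice, so that a floxed Alk5 allele was deleted wherever Wnt1-Cre was active. Alk5 (gene symbol Tgfbr1) is a type I receptor for TGF-beta. Knockout embryos were picked out by a cleft palate and a defect of the calvaria, and littermates served as controls whose own genotype the labels do not give. Every embryo's mandible and maxilla was cut into a proximal and a distal piece, and each of these 4 parts had 2 control and 4 knockout arrays. Nothing in the labels says whether a replicate number is 1 embryo or a pool, so the p-values measure only the spread between these samples.

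Muscle of the jaws comes from mesoderm, a lineage in which Wnt1-Cre is not active, while the connective tissue around it comes from the neural crest, in which it is. Myoblasts express myogenic factors such as Myod1 and Myog, fuse, and then assemble sarcomeres from actin, myosin, troponin and titin; embryonic and slow isoforms, among them Myh3, Myh7 and Tnni1, come before the fast adult ones. In parallel the fibres insert acetylcholine receptors into the membrane, with the gamma subunit in place in the embryo, and couple excitation to calcium release through the ryanodine receptor. In bulk tissue such as this, fewer muscle cells and less muscle RNA per cell cannot be told apart.

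Promoters were available in RefSeq's table (GRCm38.p6) for 30 of the 35 genes, as 33 promoter sequences. The letters CAGCTG, which read the same on both strands and are one form of the E-box (CANNTG) bound by myogenic factors, lay within 250 bases before the start in 15 of the 33 promoters, 45.5% of them, against 13.0% of all 32851 promoters searched. Counted by gene, CAGCTG lay in 14 of the 30, since overlapping promoters of Tnni1 hold the same site. The looser CANNTG, which includes CAGCTG, was found in 87.9% of member promoters and 66.2% of all. A MEF2 site was found in 12.1% against 2.92%, a CArG box, the site of serum response factor, in 9.09% against 1.47%, and TATAAA, on either strand, in 24.2% against 12.4%. The 250 bases before the start are given for 4 genes that were higher in the mandible of the knockouts, with CAGCTG and MEF2 sites in capitals. Chrna1 (chr2:73580339-73580588, minus strand) and Chrng (chr1:87205561-87205810, plus strand), for the alpha and gamma subunits of the acetylcholine receptor, each hold CAGCTG 2 times, beginning 92 and 44 bases before the start in Chrna1 and 155 and 132 bases before it in Chrng. Klhl41 (chr2:69669870-69670119, plus strand), whose product helps stabilise thin filaments, holds CAGCTG 127 bases and a MEF2 site 63 bases before the start. Tnnt1 (chr7:4515976-4516225, minus strand), the slow skeletal troponin T, holds neither and is shown for contrast.
Chrna1: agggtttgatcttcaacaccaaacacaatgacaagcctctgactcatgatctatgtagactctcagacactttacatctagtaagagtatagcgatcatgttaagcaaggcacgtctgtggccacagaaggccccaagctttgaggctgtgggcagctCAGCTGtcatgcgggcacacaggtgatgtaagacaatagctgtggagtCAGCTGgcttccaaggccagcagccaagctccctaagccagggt
Chrng: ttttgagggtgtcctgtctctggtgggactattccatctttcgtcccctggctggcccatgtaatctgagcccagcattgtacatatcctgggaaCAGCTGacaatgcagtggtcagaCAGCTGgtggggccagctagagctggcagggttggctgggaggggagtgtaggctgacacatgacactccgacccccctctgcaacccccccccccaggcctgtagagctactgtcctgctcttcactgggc
Klhl41: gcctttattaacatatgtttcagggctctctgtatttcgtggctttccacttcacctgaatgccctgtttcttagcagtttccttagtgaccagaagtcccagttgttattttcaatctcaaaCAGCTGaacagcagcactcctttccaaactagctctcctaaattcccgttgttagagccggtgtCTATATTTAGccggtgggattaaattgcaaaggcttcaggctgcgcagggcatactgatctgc
Tnnt1: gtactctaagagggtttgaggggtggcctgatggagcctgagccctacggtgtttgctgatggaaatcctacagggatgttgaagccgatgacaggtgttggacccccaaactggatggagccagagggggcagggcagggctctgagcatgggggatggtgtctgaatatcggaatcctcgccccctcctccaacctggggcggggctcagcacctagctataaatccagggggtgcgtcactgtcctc

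Some arrays stood apart or went against their labels. The 100 genes outside the muscle lists that separated the mandibular ends best in the knockouts differed the same way in 86 of 100 cases in control 1, but in 16 of 100 in control 2. In the maxilla the counts were 91 and 26 of 100. Hand2, a transcription factor of distal arch mesenchyme, read 12.72 on the array labelled distal mandible and 10.80 on the one labelled proximal in control 1, and 11.49 and 13.05 in control 2. Pax3 read 10.59 and 6.31 in control 1, and 6.70 and 10.93 in control 2, in the same order of labels. In the mandible the ends of control 2 therefore ran against their labels, which are kept as given below. The maxilla was less clear. Pax3 stands in the list of myogenic regulators but did not follow the muscle genes, with 10.53 on the distal maxilla of knockout 3, where their median was lowest. It read 9.31 distally and 8.57 proximally in the maxilla of control 1. In control 2 it read 10.77 and 10.56, in the same order. Of each 100 genes, only 7 had passed the test between the ends in the knockout mandible and 1 in the knockout maxilla. Knockouts 1 and 2 showed an excess of 3′ over 5′ signal in the actin and Gapdh control probe sets of 1.13 ± 0.28 log2 units (SD, n = 8 arrays), against 0.08 ± 0.06 in knockouts 3 and 4 (n = 8) and 0.18 ± 0.04 in the controls (n = 8). Their hybridisation controls were brighter too, at a mean of 11.52, against 8.92 and 10.42. Tgfbr1 itself read between 11.98 and 12.69 on the control arrays and between 12.07 and 12.64 on the knockout arrays, so the groups overlapped, and whether its probe set lies in the deleted part was not tested.

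The muscle genes varied over a wide range, together, and mostly by jaw and by dissected piece. Their median level was highest, at 9.64 (log2), on the array labelled proximal mandible of control 1, and lowest, at 5.63, on the distal maxilla of knockout 3. In the proximal mandible the medians were 9.64 and 7.81 in the controls and 8.04, 8.29, 8.93 and 8.76 in knockouts 1 to 4. In the distal mandible they were 8.16 and 9.07 in the controls and 8.99, 8.14, 8.05 and 8.32 in the knockouts. Every mandible array thus stood at 7.81 or above. The proximal maxilla gave 9.15 and 6.08 in the controls and 6.42, 7.51, 5.90 and 8.16 in the knockouts. In the distal maxilla the medians were 7.30 and 5.94 in the controls and 6.14, 6.66, 5.63 and 6.67 in the knockouts. Only the proximal maxilla of control 1 and that of knockout 4 reached the range of the mandible. Of the 35 genes, 27 had their highest level on the control 1 proximal mandible, and all 35 had it on a mandible array. All 35 had their lowest level on a maxilla array, 11 of them on the distal maxilla and 8 on the proximal maxilla of knockout 3.

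**Figure D1:**
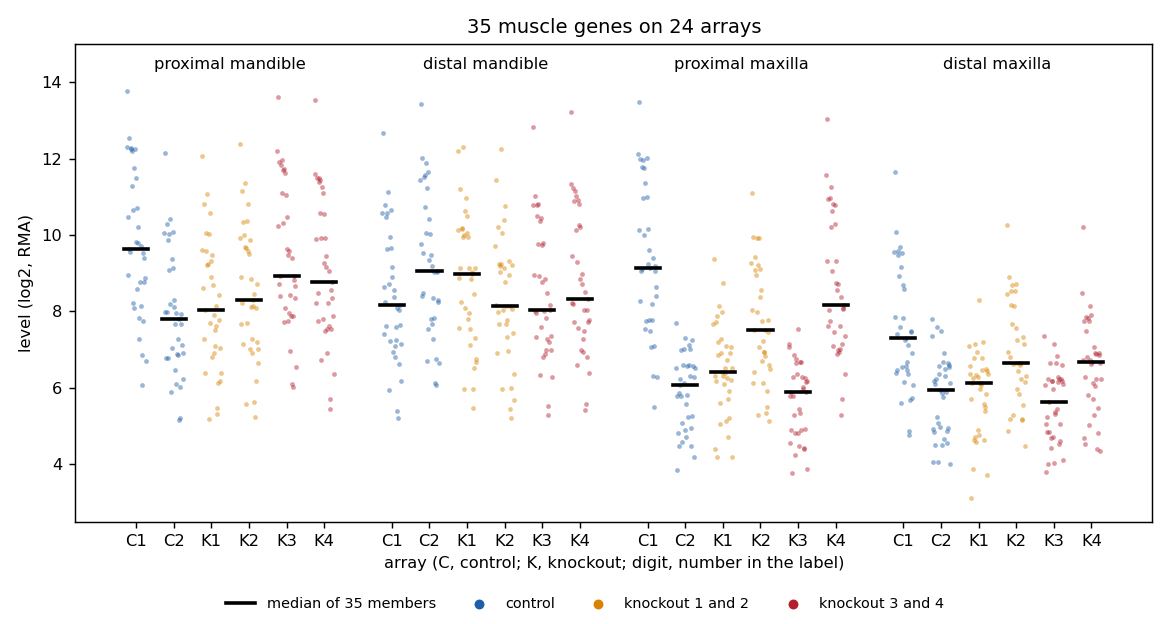
Level of 35 muscle genes (points, log2, RMA) on each of 24 arrays, with the median of the 35 genes as a bar. All mandible medians stand at 7.81 or above, while the maxilla medians run from 5.63 to 9.15.

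The size of this variation differed by gene. The span between lowest and highest array was above 5 log2 units for 16 genes and above 2 for 31; a probe set's own background limits how far down it can read. Myh3, the embryonic myosin heavy chain, spanned 7.72 units, from 4.82 on the proximal maxilla of control 2 to 12.54 on the proximal mandible of control 1. Actc1, the cardiac actin that early skeletal muscle also uses, spanned 7.70 units, and Tnnc2, the fast troponin C, 6.76. The giant protein titin (Ttn) spanned 6.68. At the other end stood Ckm, the muscle creatine kinase, with 0.62, and Chrnd, the delta subunit of the acetylcholine receptor, with 0.83. Neither followed the other members closely. A second Ckm probe set spanned 0.37, while Tnni2, the fast troponin I, spanned 1.92 in the probe set used and 3.75 in another. On all 24 arrays 9 genes stood above the filter level, and Cacna1s, the pore of the skeletal calcium channel, passed it on 4 arrays only.

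**Figure D2:**
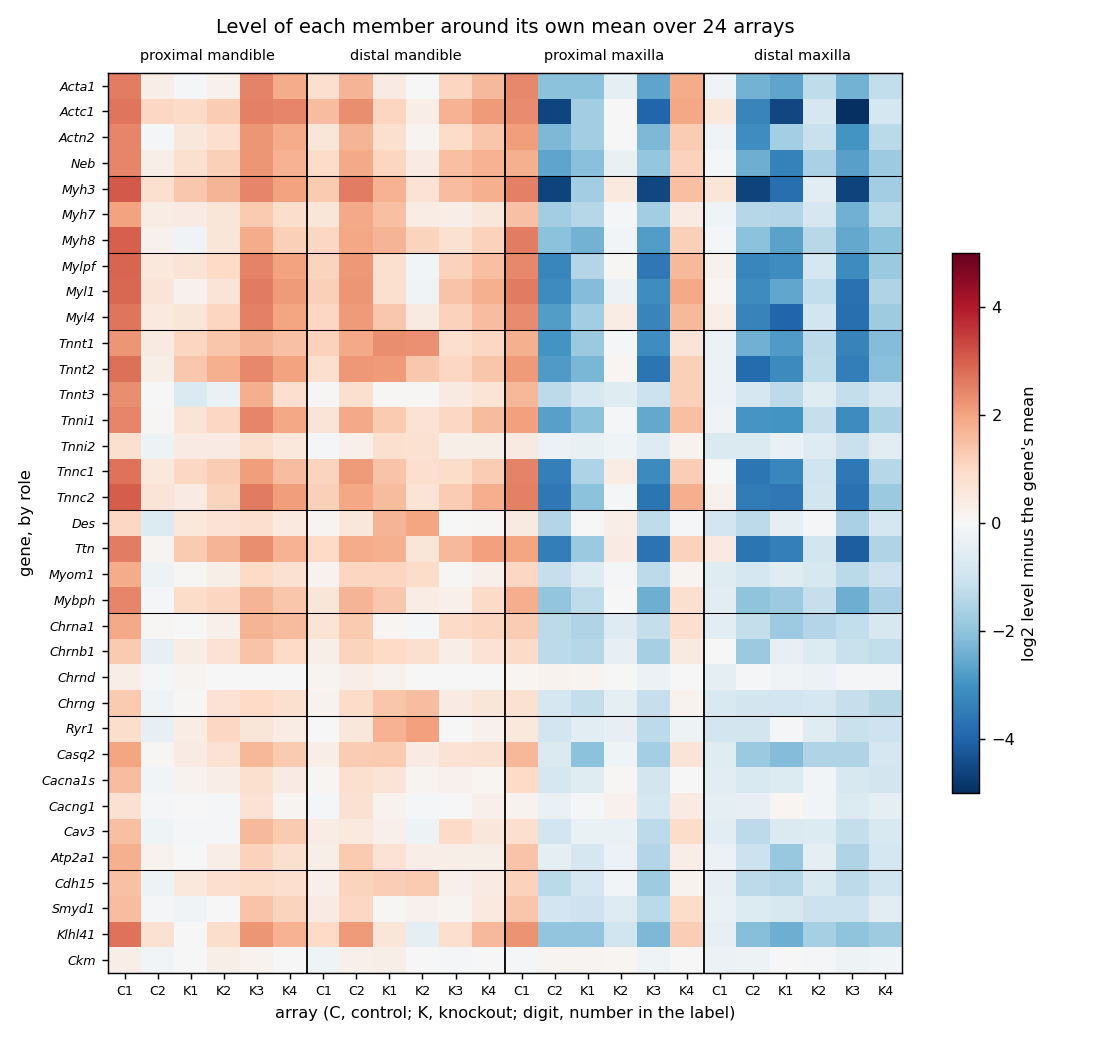
Each gene's log2 level minus its own mean over 24 arrays (colour), with genes in rows by role and arrays in columns by part. The columns of control 1 and knockout 4 in the proximal maxilla are red for most genes, the other maxilla columns mostly blue, and the rows of Ckm, with a span of 0.62, and Chrnd, with 0.83, stay pale.

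The clearest difference lay between the jaws of the knockouts. Of the 34 genes tested, 17 were higher in the mandible than in the maxilla and 0 were lower (limma, 8 against 8 arrays, Benjamini-Hochberg over all genes, threshold 0.05), where 1.14% of all 13837 genes were called higher and 1.21% lower. The median difference was 2.16 log2 units, against -0.02 over all genes, and all 34 genes were higher in the mandible in each of the 4 knockout numbers. Without the proximal maxilla of knockout 4, the mandible and maxilla arrays did not overlap for 28 genes (0.954% of all genes). With all arrays they did not overlap for 5 (0.267% of all genes), which were Tnnt1, Tnni2, Ryr1, Cdh15 and Cacna1s. Cacna1s, part of both counts, passed the filter level on 3 mandible arrays and 1 maxilla array, so its place among the genes tested rests on the jaw where it is higher and lends no support. With the replicate number as a block, 28 genes were called (6.27% of all genes), the 17 among them. When the ends of each number were averaged first, so that the test rested on 4 differences, 17 were called (5.03% of all genes), 15 of them among the first 17.

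Of the 7 troponins 4 were called, all higher in the mandible, with differences from 0.99 to 3.52. Tnnt1 ranged from 10.81 over a median of 11.40 to 12.31 on the knockout mandible arrays and from 6.65 over 7.98 to 10.62 on the maxilla arrays. Every mandible array was above every maxilla array, and the difference was 3.26 ± 0.63 (SE, adjusted p = 0.00810). Tnnt2, the cardiac troponin T that embryonic skeletal muscle also makes, ran from 8.93 over 9.48 to 10.31 against 4.24 over 5.71 to 9.07. Only the proximal maxilla of knockout 4 reached the mandible's range, and the difference was 3.52 ± 0.75 (adjusted p = 0.0159). Tnni2 ranged from 7.57 over 7.75 to 8.09 against 6.17 over 6.82 to 7.46, a difference of 0.99 ± 0.16 with no overlap (adjusted p = 0.00269). Tnni1, the slow troponin I, was also called, with 2.86. The 3 other troponins did not pass: Tnnc2 (3.20), Tnnc1, the slow and cardiac troponin C (2.84), and Tnnt3, the fast troponin T (1.03).

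Among the filament and scaffold proteins, Ttn ran from 8.77 over 9.90 to 10.48 on the mandible arrays against 4.04 over 6.48 to 9.33 on the maxilla arrays. The groups overlapped only through the proximal maxilla of knockout 4, and the difference was 3.38 ± 0.83 (adjusted p = 0.0355). Nebulin (Neb), the ruler of the thin filament, was called with 2.93, as were the myosin heavy chains Myh8 (perinatal, 2.62) and Myh7 (slow, 1.86) and the thick filament protein Mybph (2.24). Myh3 had the largest difference of all members, 3.54, but a standard error of 1.02, and did not pass (adjusted p = 0.0844). Its levels in the maxilla of the knockouts ran from 4.84 to 10.95. Neither the actins Actc1 (3.44) and Acta1 (2.29), the Z-disc crosslinker Actn2 (2.31), the light chains Myl4 (3.02), Myl1 (2.76) and Mylpf (2.72), nor desmin (Des, 1.30) and the M-band protein Myom1 (1.26) passed.

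The receptor and calcium genes had smaller differences with smaller errors. Chrng (1.68), Chrna1 (1.67) and Chrnb1 (1.61) were called, and Chrnd was not (0.13, adjusted p = 0.70). Ryr1, the calcium release channel, ran from 7.29 over 7.75 to 9.31 against 5.96 over 6.70 to 7.19. The arrays did not overlap, and the difference was 1.46 ± 0.31 (adjusted p = 0.0152). Casq2, the calcium buffer of the sarcoplasmic reticulum (2.08), and Atp2a1, its calcium pump (1.37), were called too. Cav3, the muscle caveolin (1.09), and Cacna1s (0.85) did not pass. Of the genes for adhesion and assembly, M-cadherin (Cdh15) ran from 8.18 over 8.74 to 9.22 against 6.15 over 6.99 to 8.08, a difference of 1.67 ± 0.35 with no overlap (adjusted p = 0.0138). Klhl41 was called with 2.42, whereas the myosin-folding methyltransferase Smyd1 (1.10) and Ckm (0.14) were not. The probe set used for Smyd1, 1 of 6, spanned 2.88 over the 24 arrays. The others spanned from 0.55 to 5.67, and the widest correlated with it at 0.92.

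**Figure D3:**
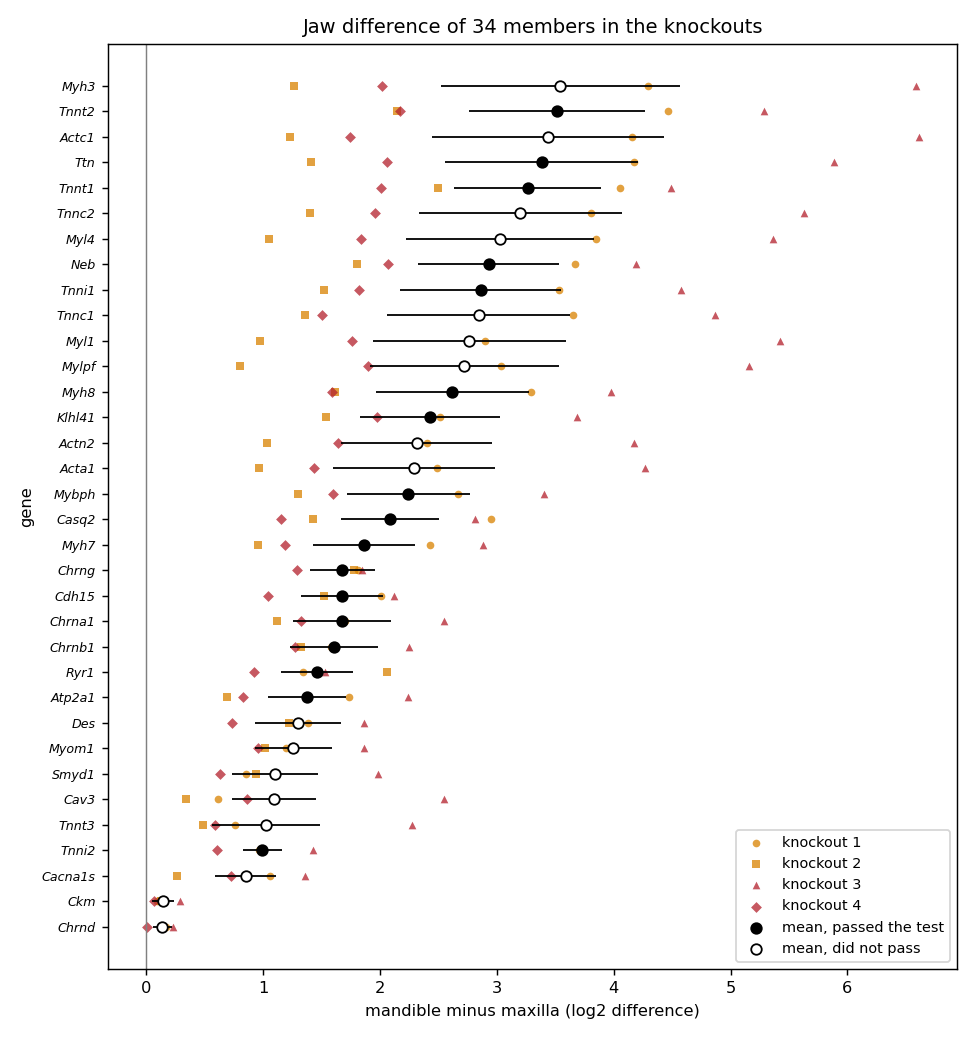
Mandible minus maxilla (log2) of 34 genes in the knockouts, as the mean of 8 against 8 arrays with its standard error (large circles, filled where the test was passed) and as the difference in each knockout number (small symbols). All small symbols lie above 0; those of knockout 3 lie farthest right for most genes, with a median of 3.14.

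The size of the jaw difference depended on the number. Its median over the 34 genes was 2.46 in knockout 1, 1.22 in knockout 2, 3.14 in knockout 3 and 1.38 in knockout 4. The number of genes called fell when a knockout was left out, as did the share of all genes called, which was 2.36% in either direction with all 4. It was 2 without knockout 1 (Chrng, Tnni2; 0.426% of all genes), 0 without knockout 2 (0.513%), 2 without knockout 3 (Chrng, Tnni2; 0.701%) and 8 without knockout 4 (1.24%). With knockouts 3 and 4 alone 0 were called (0.354% of all genes), and with knockouts 1 and 2 alone 2 (Chrng, Ryr1; 2.02%). With the distal ends alone 4 genes were called (Chrng, Neb, Tnni2, Tnnt1; 1.20% of all genes), or 18 with the replicate block (4.09%). With the proximal ends alone 0 were called (0.231% of all genes), and 0 with the block (0.470%). With the mean level of 40 other muscle genes as a covariate, 2 were called (Chrng and Tnni2, with 3.39% of all genes called). The mean of those 40 genes mostly rose and fell with that of the members, but over a smaller range (6.46 to 8.13, against 5.59 to 9.89). The covariate can therefore take out any difference they share, and it cannot tell the amount of muscle from the level per cell.

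In the controls the mandible was above the maxilla for all 34 genes as well, in both numbers. The median difference was 1.77. At an unadjusted p under 0.05 stood 26 of the 34 genes, against 833 of all 13837. After adjustment limma called 0 (7 genes, 0.0506% of all, were called higher at all). The smallest adjusted p values were those of Myh7 (1.71 ± 0.62, adjusted p = 0.514), Tnnt1 (2.40 ± 0.89, 0.537) and Neb (2.25 ± 0.85, 0.559). The 2 controls differed: control 1 had a median difference of 0.65, with genes from 0.25 to 0.94, and control 2 of 2.76, with genes from 0.07 to 6.32. They stood farthest apart in the proximal maxilla, where Myh3 read 11.98 in control 1 and 4.82 in control 2. The difference of the jaw effect between genotypes was tested as an interaction. It had a median of 0.33 (-0.54 without control 1 and 1.41 without control 2), 0 genes were called (0% of all genes), 0 had an unadjusted p under 0.05, and the smallest p was that of Tnni2 (0.48 ± 0.29, adjusted p = 1.0).

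Other muscle genes were read beside the members. In the knockouts, 6 of 40 further muscle structure genes were called higher in the mandible and 0 lower, with a median of 0.34; those with the smallest p were Stac3 (0.77), Klhl40 (1.20), Lmod3 (1.89) and Unc45b (1.54). At the neuromuscular junction 1 of 6 was called, Rapsn (1.34 ± 0.27), which clusters acetylcholine receptors, while Dok7 (0.33), Lrp4 (-0.12) and Ache (0.28) did not pass. Of 16 myogenic regulators 7 were higher and 1 lower. Tcf21 (1.97), a factor of head muscle progenitors, Myf5 (2.94) and the fusion peptide Mymx (3.61) were higher, and Eya1 (-1.22) was lower.

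Markers of some other cell types also differed between the jaws. The erythroid, macrophage, glia and tendon lists are not described here. All 10 neuron markers were lower in the mandible of the knockouts, 4 of them called, with a median of -2.20. Their mean level was 6.45 to 8.15 on the knockout mandible arrays and 7.63 to 10.37 on the knockout maxilla arrays. It was also high on the maxilla arrays richest in muscle genes, at 11.69 on the proximal maxilla of control 1 and 10.37 on that of knockout 4, but also on the distal maxilla of knockouts 1 and 2 (9.53 and 9.54), where muscle genes were low. Of 5 cardiac markers tested 3 were called higher in the knockout mandible (Hand2, Tbx5 and Nkx2-5, with a median of 0.83 over the 5) and 2 in the control mandible (Hand2 and Tbx5); Hand2 and Tbx5 are read in other embryonic mesenchyme too. Of 4 smooth muscle markers tested only Acta2 was called (2.49), an actin that embryonic skeletal muscle also makes, while Cnn1 read at most 6.09 and Myh11 at most 6.06 anywhere. Of 10 epithelial, 8 endothelial and 8 cartilage markers 0 were called. The part of these cell types in the jaw difference was not tested.

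None of the 34 genes passed the test between the proximal and distal ends, and in the mandible the numbers did not run the same way. In the mandible of control 1 all 34 genes were lower at the labelled distal end, with a median of -1.55, and in control 2 all 34 were higher, with a median of 1.37. The medians were 0.60, -0.26, -0.94 and -0.30 in knockouts 1 to 4. In the maxilla they were -1.87 in control 1, -0.02 in control 2, and -0.45, -0.80, -0.06 and -2.24 in the knockouts. Acta1, the skeletal actin, read 12.30 and 10.05 in the proximal and 10.58 and 11.43 in the distal mandible of controls 1 and 2, so that the order of the ends reversed between the controls. Over all arrays limma called 0 of 34 genes in each end comparison: control mandible (0% of all genes), knockout mandible (0.0217% higher, 0.0361% lower), control maxilla (0%) and knockout maxilla (0.00723%, all lower). The numbers at an unadjusted p under 0.05 were 0, 0, 2 and 0, against 8, 582, 191 and 374 of all 13837 genes. In the maxilla all 34 genes had a lower mean at the distal end in both genotypes, with medians of -0.87 and -0.88. Closest to passing there were Chrnd (-0.42) and Tnni2 (-0.82) in the controls and Neb (-1.57) in the knockouts, all with an adjusted p of 1.0. The interaction of genotype and end had a median of 0.01 and 0 calls (0% of all genes), but its median was 1.10 without control 2 and -1.24 without control 1, again with 0 calls. The control mandible had a median of -0.02 over both numbers and of -1.55 without control 2, whose ends there ran against their labels.

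**Figure D4:**
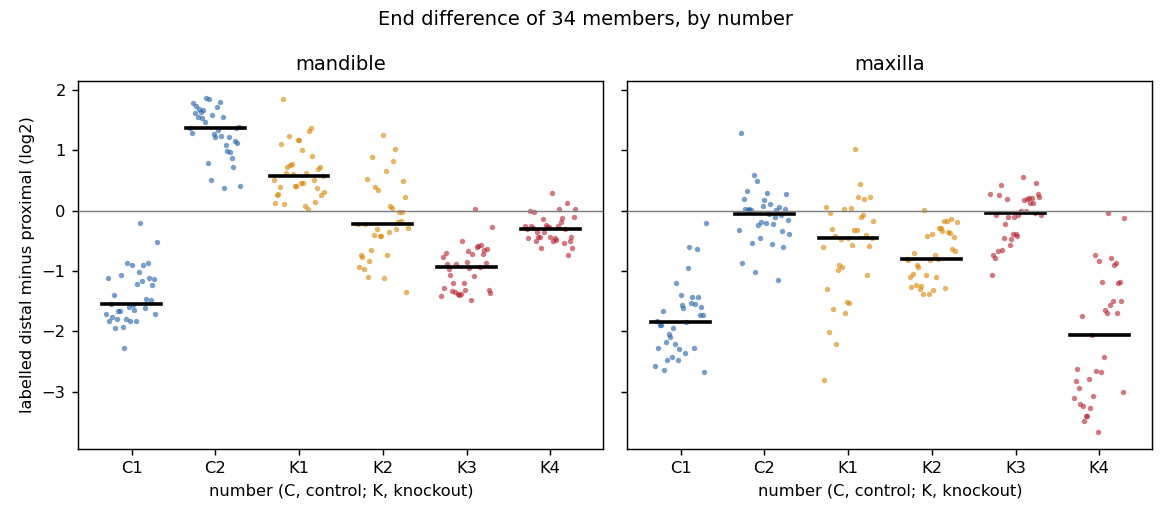
Labelled distal minus proximal (log2) of 34 genes in the mandible (left) and maxilla (right), for each control (C) and knockout (K) number, with the median as a bar. In the mandible all genes of C1 lie below 0 and all of C2 above it, with medians of -1.55 and 1.37.

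Between knockouts and controls no change of these genes was detectable. With the 4 parts of each number averaged, 4 knockouts against 2 controls, limma called 0 of 34 genes (0% of all genes), and 0 had an unadjusted p under 0.05. The median difference, knockout minus control, was -0.35, with 30 genes below 0, against -0.05 over all genes. It rested on which control was used: 0.48 without control 1 and -1.18 without control 2. The smallest p values were those of Atp2a1 (-0.58 ± 0.29), Myh7 (-0.55 ± 0.37) and Klhl41 (-0.83 ± 0.62), each with an adjusted p of 0.706. By part, the medians were -0.05 in the proximal mandible, -0.20 in the distal mandible, -0.50 in the proximal maxilla and -0.46 in the distal maxilla. These pool both controls as labelled. Without control 2, whose mandibular ends ran against their labels, the medians were -0.99, 0.17, -2.52 and -1.26 in the same order. Without control 1 they were 0.89, -0.71, 1.04 and 0.25. The sign in every part thus turned with the control left out, and 0 of the 34 genes were called in each of these fits. In each part 0 genes were called, and 0 had an unadjusted p under 0.05. Of all genes 0% were called in the proximal mandible, 0.00723% in each direction in the distal mandible, and 0.00723%, all lower, in each end of the maxilla. Those nearest to passing were Tnni2 in the distal mandible (0.43 ± 0.29, adjusted p = 0.561), Tnnt3 in the proximal mandible (-0.76 ± 0.80, 0.838), Atp2a1 in the proximal maxilla (-1.04 ± 0.58, 0.860) and Neb in the distal maxilla (-1.11 ± 1.04, 0.903). Of the lists of other muscle structure genes (40 tested), neuromuscular junction genes (6) and myogenic regulators (16), 0 genes were called in the comparison of all parts.

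The 2 sets of knockouts were also compared with the controls apart, since their RNA quality differed. For knockouts 3 and 4 the median was -0.19, and 0 of 34 genes were called (0.275% of all genes higher, 1.29% lower), with 0 at an unadjusted p under 0.05. The nearest was Chrnd (-0.11 ± 0.06, adjusted p = 0.293). For knockouts 1 and 2 the median was -0.38, and 0 of 34 were called, although 20.9% of all genes were called higher and 31.7% lower. At an unadjusted p under 0.05 stood 2 of the 34, against 8185 of all 13837 genes. Ryr1 (0.60 ± 0.20, adjusted p = 0.0589), Des (0.87 ± 0.31, 0.0723) and Chrna1 (-0.91 ± 0.38, 0.103) had means per number that did not overlap between the groups but did not pass. The median depended on the control here too, at 0.34 without control 1 and -1.29 without control 2. Without control 1, 7 of 34 genes were called, all higher, among them Des (1.31) and Ryr1 (0.87), a smaller share than the 44.0% of all genes called in that fit. Without control 2, 26 of 34 were called, all lower, among them Klhl41 (-2.16), Acta1 (-2.15) and Chrna1 (-1.46), where 47.5% of all genes were called. Each of these fits holds 1 control mean, which is assumed to vary like the 2 knockout means. With the level of 40 other muscle genes as a covariate, 17 were called higher and 2 lower (47.6% of all genes), among them Des (1.34) and Ryr1 (0.88) higher and Klhl41 (-0.43) and Chrna1 (-0.34) lower. In knockouts 3 and 4 the same covariate gave 4 calls (10.7% of all genes). Of these, Cav3 was higher (0.40) and Atp2a1 (-0.38), Myh7 (-0.41) and Myh8 (-0.39) were lower. Both fits add the covariate to 2 control and 2 knockout means, which leaves little to estimate the spread from. The mean of the covariate genes also mostly rose and fell over the arrays with that of the members, over a smaller range. The calls of these 2 fits are therefore descriptions and do not show a change in the knockouts.

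The 2 sets were also set side by side within the knockout mandible. In all 4 arrays of knockouts 1 and 2, 9 of 34 genes were below all 4 arrays of knockouts 3 and 4, which is 26.5% of the members against 31.9% of all genes. Above them were 0 of 34, against 26.5% of all genes. The share below is near the background, so the genes that follow describe the 2 sets and not muscle genes in particular. Acta1 read 9.62, 9.93, 10.14 and 9.71 on the mandible arrays of knockouts 1 and 2 (proximal 1 and 2, then distal) and 12.20, 11.59, 10.78 and 11.33 on those of knockouts 3 and 4. The sets did not overlap, and the means differed by -1.63. Myl1, a fast alkali light chain, differed by -1.61 and Chrna1 by -1.27, also without overlap. In the maxilla the sets overlapped for these 3 genes, with differences of -0.50 for Acta1, 0.05 for Myl1 and -0.75 for Chrna1. Des, the intermediate filament of muscle, went the other way, with 9.32, 9.51, 10.50 and 10.77 against 9.63, 9.28, 8.77 and 8.84. The distal arrays of knockouts 1 and 2 were the 2 highest of all 24 for this gene. Ryr1 behaved alike, with 8.99 and 9.31 there against 7.29 and 7.49 in knockouts 3 and 4, and Tnnt1 read 12.31 and 12.25 against 10.81 and 11.02.

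**Figure D5:**
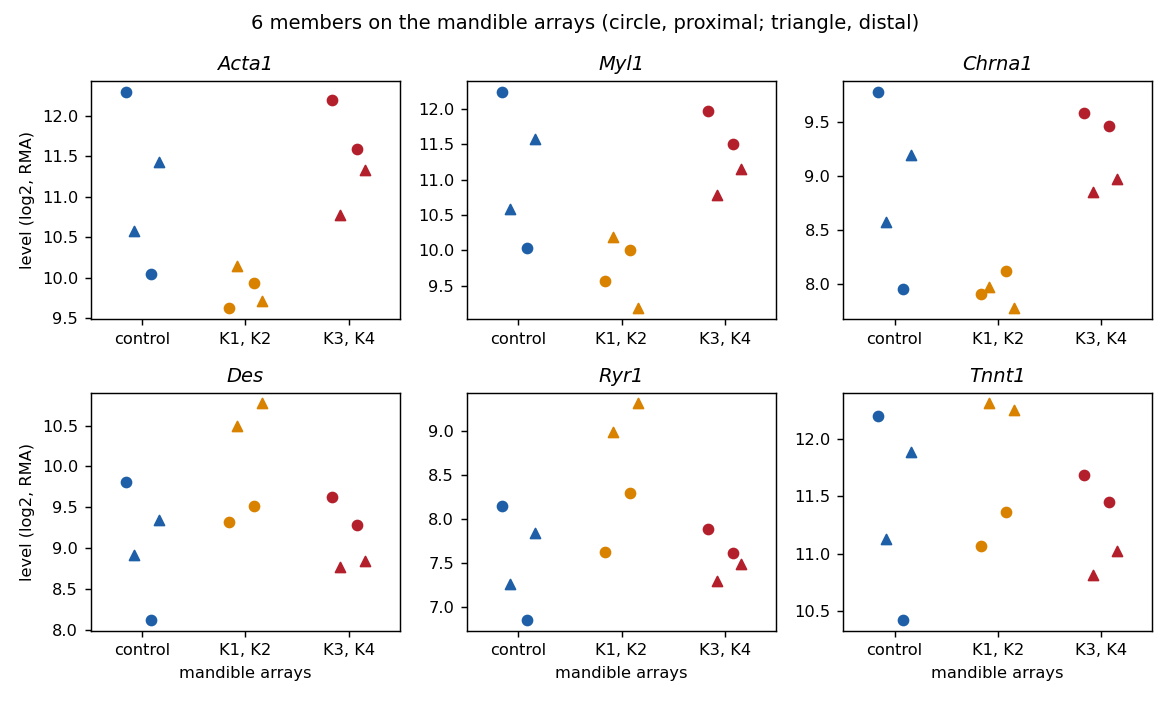
Level (log2, RMA) of 6 genes on the 12 mandible arrays, by set: controls, knockouts 1 and 2, and knockouts 3 and 4; circles are proximal and triangles distal arrays. Acta1, Myl1 and Chrna1 are lower in knockouts 1 and 2 than in 3 and 4, whereas Des, Ryr1 and Tnnt1 peak on the distal arrays of knockouts 1 and 2.

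Markers of cardiac and other muscle moved on the same arrays. Myh6, an atrial myosin, read 6.75 and 6.77 on the distal mandible of knockouts 1 and 2 and at most 4.44 elsewhere. Nkx2-5, a factor of heart and pharyngeal progenitors, read 8.03 and 8.30 there and at most 6.93 elsewhere. The mean of the 8 cardiac markers was 6.97 and 6.96 on these arrays and 5.37 to 6.48 on the other 22. Of the defining heart genes, Nppa stayed at or below 4.42, Myl7 at or below 5.97 and Gata4 at or below 5.60 on every array. Tbx1, a factor of pharyngeal mesoderm chosen after its values were seen, read 10.28 and 10.30 there against at most 9.28 elsewhere. Their part in the levels of Des, Ryr1 and Tnnt1 was not tested, and the RNA quality of these numbers moved with them as well.

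Across all 24 arrays the members varied together. The correlation between 2 members, over 595 pairs, had a median of 0.89 and ran from 0.36 to 0.99, and 285 pairs (47.9%) were above 0.9. These arrays share embryos and dissections, so the correlations are descriptions. Tnni1, Tnnt2, Tnnc1, Tnnc2, Myl4 and Mybph followed the mean of the other members most closely (0.99 each), while Chrnd (0.47), Ckm (0.49), Ryr1 (0.74) and Des (0.77) followed it least. With the level of Myog, the correlation was 0.99 for Tnni1 and 0.41 for Ckm. Myog itself ran from 5.88 on the distal maxilla of knockout 1 to 11.71 on the proximal mandible of knockout 3. Tnnt2 and Tnni1 lie near each other on a chromosome, with 1 protein-coding gene between them, and correlated at 0.99. Tnnt3 and Tnni2, with 1 gene between them, correlated at 0.73, and the adjacent Chrnd and Chrng at 0.53.

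Of all genes kept, 71 correlated above 0.9 with the mean of the members, 28 of them members and 22 outside all muscle lists. Each member is part of that mean, so the count of 28 is favoured in advance. The 10 named genes outside the lists that followed the members best over the 24 arrays were Ccdc141 (0.99), Il17b (0.98), Mylk4, Hjv, Mypn and Srpk3 (0.97 each), Tceal7 (0.96) and Arpp21, Ablim3 and Rxrg (0.95 each). Ccdc141 ran from 3.96 to 8.89 and Il17b from 6.28 to 9.78.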

How the data were processed

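Per the submitters' processing notes the values were made with RMA (version not given in the sources used here), and the deposited table holds 1 log2 value per probe set and array. The labels' protocols state that 5 µg of total RNA were labelled per array. Of 45101 probe sets, 34945 had 1 gene symbol in the platform annotation, 932 several and 9160 none; control features (64) were left out. A gene was read from its brightest probe set (18193 genes) and kept if above the 40th percentile of all values (log2 6.07) on at least 2 arrays (13837 genes). Array medians lay between 6.76 and 6.89; precision is limited by how many arrays each group has.

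Fits used limma 3.58.1 in R 4.3.3 (lmFit, eBayes, 2-sided, Benjamini-Hochberg over all genes kept, threshold 0.05), with 8 group means over 24 arrays, or the mean of the 4 parts per number for comparisons over all parts; 15 comparisons were made. Fold differences are given as log2. The ends of a number count as separate arrays in the first kind of fit. The fits were tested on simulated data. In the knockouts the deviations of mandible and maxilla of a number correlated at 0.69 to 0.85. The difference between knockouts 1 and 2 and knockouts 3 and 4 enters these correlations, and its share was not tested. In the controls the correlation was 0.36 between the jaws and -0.68 between the mandibular ends. The deviations of control and knockout numbers correlated at -0.30. The members and gene lists were chosen with earlier results of these data known. Named with full statistics are at most the 6 largest called differences, arrays without overlap first, or else the 3 smallest p values; up to 4 genes of each muscle list; and 10 genes that follow the members. Alternatives were no filter, a stricter filter (log2 6.82 on 4 arrays), median-centred arrays, a trended prior, the mean of all probe sets, RNA quality or the level of 40 other muscle genes as a covariate, array set or number as a block, and leaving out each number.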

Additional observations from a re-analysis of the deposited data

Results flagged for a closer look

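In 136 combinations of a gene and a knockout part, each with 4 arrays, 2 had 1 array far from the other 3; chance gives about 1 in 20. Atp2a1, the calcium pump of the sarcoplasmic reticulum, read 8.46 on the distal mandible of knockout 1, against 8.05 to 8.07 on the other 3 arrays. Cav3, the muscle caveolin, read 5.05 on the distal maxilla of knockout 3, against 5.47 to 5.55 on the others.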

How the results depend on the processing

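The count of genes called higher in the knockout mandible than in the maxilla was 17. In that fit 1.14% of all genes were called higher and 1.21% lower. The count rose to 28 with the replicate block, where 6.27% of all genes were called in either direction. It was 26 with RNA quality as a covariate, 28 with array set as a random block and 27 without the proximal maxilla array of knockout 4. The shares of all genes in those fits are not given here, so these rises do not single out muscle genes. Each of these fits held all 17. The count was 2 with other muscle genes as a covariate (Chrng, Tnni2, with 3.39% of all genes called). It was 2 with knockouts 1 and 2 only, 0 with knockouts 3 and 4 only, and 0 in the replicate block with either set alone. With the distal ends only it was 4, and with the proximal ends only 0, with or without the block. Leaving out any 1 knockout number lowered the count, to 0 at the lowest, and the shares of all genes in those fits are given above. The controls enter this comparison only through the shared spread. For knockouts 1 and 2 against the controls the count was 0, where 20.9% of all genes were called higher and 31.7% lower. It was 3 with median-centred arrays (Ckm, Des, Ryr1), 1 with a trended prior and 1 with the mean of all probe sets (Ryr1). The shares of all genes in those fits are not given here. With other muscle genes as a covariate the count was 19 (17 higher and 2 lower, with 47.6% of all genes called), in a fit with little left to estimate the spread from. For knockouts 3 and 4 it was 0, but 4 with that covariate (1 higher, 3 lower; 10.7% of all genes), and 0 to 1 with a number left out, 1 being Cacna1s without control 2. In the distal mandible, knockout against control, Ryr1 was the 1 member called with knockouts 1 and 2 only. It was again the 1 member called with the replicate block, although the numbers do not pair controls with knockouts. The shares of all genes in those fits are not given here, so whether Ryr1 stood out from other genes is not shown. For knockouts 3 and 4 against controls no paired analysis was possible because they share no numbers with the controls. The block changed no other call count. The alternatives that use single ends, single sets with the block, ends averaged first, or drop the proximal maxilla array of knockout 4 were chosen after seeing the data. The causes of these changes were not tested.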
